A study of Mus musculus with 4 samples.

Results

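The AP-1 transcription factor genes were followed in sorted epidermal cells of mouse pups after induction of the microRNA miR-203. The 10 genes chosen by symbol were Jun, Junb, Jund, Fos, Fosb, Fosl1, Fosl2, Atf3, Maff and Batf. They were measured by 14 probe sets annotated to exactly 1 gene, out of 45037 probe sets on the array, and stand for 10 of 18193 named genes. The induced pups carried K14-rtTA, TRE-miR-203 and K14-H2BGFP, so that the keratin 14 promoter, active in basal keratinocytes, drives both the doxycycline-dependent activator and a nuclear green fluorescent protein. The control littermates, labelled WT, carried TRE-miR-203 and K14-H2BGFP without the activator. Both groups were FVB pups at postnatal day 4, taken 24 h after a doxycycline injection. Both groups share the TRE-miR-203 transgene, the reporter and the drug. They differ in the activator, so effects of the activator itself and of miR-203 cannot be told apart. Cells were sorted by flow cytometry, and neither the sorting gate nor whether a sample was 1 pup or a pool is stated. There were 2 induced and 2 control arrays.

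AP-1 is a dimer of basic leucine zipper (bZIP) proteins. Jun proteins pair with each other or with Fos proteins, while Fos proteins need a partner to bind DNA. Most of the genes are immediate early genes, whose transcripts appear within minutes of growth factor, wounding or stress signals, and cutting and enzymatic dissociation of tissue is itself such a signal. In epidermis AP-1 proteins act in basal proliferation, in differentiation and in wound repair, and Jun has been reported in the literature as a miR-203 target.

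The sequences that bear on the comparison are the expressed microRNA arm and the promoters of 3 members, Junb, Jun and Fos. The microRNA is shown because the array does not measure it. It lies at chr12:112130927-112130948 on the plus strand of GRCm38.p6 (RefSeq), and the capitals mark its seed, bases 2 to 8, which pairs with target transcripts.
mmu-miR-203-3p: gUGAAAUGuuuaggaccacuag
No target transcript sequence was used here, so seed matches in the AP-1 transcripts were not analysed.

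RefSeq promoters (250 bases before to 50 bases after the annotated start, GRCm38.p6) were found for 9 of the 10 genes, Fosl1 being without an entry, and Maff had 3 of the 11 windows. Junb is shown because its groups lay apart, and Jun and Fos because theirs overlapped. The windows lie at chr8:84978699-84978998 on the minus strand for Junb, chr4:95052173-95052472 on the minus strand for Jun, and chr12:85473640-85473939 on the plus strand for Fos. Capitals mark matches, on either strand, to the AP-1 motif TGANTCA, to TGACNTCA, which includes the cAMP response element, to TATAAA, or to the CArG box bound by serum response factor.
Junb: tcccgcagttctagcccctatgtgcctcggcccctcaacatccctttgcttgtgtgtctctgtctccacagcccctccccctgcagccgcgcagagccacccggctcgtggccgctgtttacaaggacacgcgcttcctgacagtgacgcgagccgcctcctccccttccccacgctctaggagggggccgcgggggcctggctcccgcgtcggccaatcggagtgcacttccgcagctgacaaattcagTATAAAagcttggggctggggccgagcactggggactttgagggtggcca
Jun: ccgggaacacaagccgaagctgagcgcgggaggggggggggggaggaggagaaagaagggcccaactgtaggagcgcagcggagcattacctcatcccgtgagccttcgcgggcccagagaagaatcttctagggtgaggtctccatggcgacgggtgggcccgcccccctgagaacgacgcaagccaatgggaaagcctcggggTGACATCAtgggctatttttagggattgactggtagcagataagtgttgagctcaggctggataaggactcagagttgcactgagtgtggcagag
Fos: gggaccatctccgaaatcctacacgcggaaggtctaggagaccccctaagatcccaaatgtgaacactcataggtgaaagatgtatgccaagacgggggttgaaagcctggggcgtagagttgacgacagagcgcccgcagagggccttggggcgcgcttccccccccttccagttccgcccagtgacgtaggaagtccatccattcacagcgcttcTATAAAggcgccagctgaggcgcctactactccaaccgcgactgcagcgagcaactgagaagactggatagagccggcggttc
In these windows Jun held TGACATCA at position -45, counted from 0 at the first base of the gene. TATAAA stood at position -33 in Fos and at the annotated start in Junb. Over the 11 windows TGACNTCA was found in 3 (Jun and 2 of the Maff windows), TATAAA in 2, and TGANTCA and the CArG box in 0. Of all 32851 promoter windows, 8.83% held TGACNTCA, 13.6% TATAAA, 7.81% TGANTCA and 1.63% the CArG box. These matches describe the letters of the window and are not binding data.

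Of the 14 probe sets, 13 passed a filter on dim signals, set at the 40th percentile of probe set means (log2 4.17), and all 10 genes kept at least 1. Values are log2 values computed by the authors with RMA, a method that corrects, normalises and summarises array signals, and a level is compared only within a probe set. The 4 arrays had medians of 4.74 to 4.79. Pearson's r was 0.994 between the induced arrays, 0.995 between the control arrays and 0.991 to 0.993 between groups. Markers of the epidermis were near the top of the range on every array, with keratin genes Krt14 at 13.96 to 14.13 and Krt10 at 14.19 to 14.32. Induced replicate 1 stood apart in sex-linked transcripts. Xist had values of 5.86 and 11.19 in the induced arrays, against 10.57 and 10.80 in controls. Eif2s3y had values of 9.38 and 2.72 in the induced arrays, against 2.82 and 2.52 in controls. The counts of genes whose groups lay apart are therefore also given without induced replicate 1, where 35.9% of all genes lay above both controls and 33.3% below.

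No AP-1 gene passed the test: limma gave 0 of the 10 genes and 0 of the 13 kept probe sets an adjusted p under 0.05, as it did 0% of all 27022 kept probe sets. With a trended, robust variance prior in limma 126 probe sets passed over all, none of them of an AP-1 gene. Both induced arrays lay above both controls for 5 genes, Junb, Jund, Fosl1, Fosl2 and Maff, and below both controls for 0. Over all 13489 kept genes 20.1% lay above in this way and 19.3% below. Genes whose groups lay apart with all arrays must stay apart when an array is left out. These 5 genes therefore remained above the controls without induced replicate 1 (50%, against 35.9% of all genes). Fosb, Atf3 and Batf then lay below (30%, against 33.3%). The median difference over the 10 genes was 0.12, against -0.00 over all kept genes. It was 0.05 without induced replicate 1, 0.29 without induced replicate 2, and 0.04 when a gene's kept probe sets were averaged. Only Junb had an unadjusted p under 0.05, where 4.4% of all genes were higher and 5.23% lower at that level. Without an induced replicate the fit rests on 1 induced array. Junb differed by 0.35 without induced replicate 1 and by 0.30 without induced replicate 2. For Atf3 the sign followed the array kept, with -0.40 without induced replicate 1 and 0.34 without induced replicate 2. With 2 arrays in each group a permutation test cannot go below 0.333 (exact, two-sided).

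**Figure D1:**
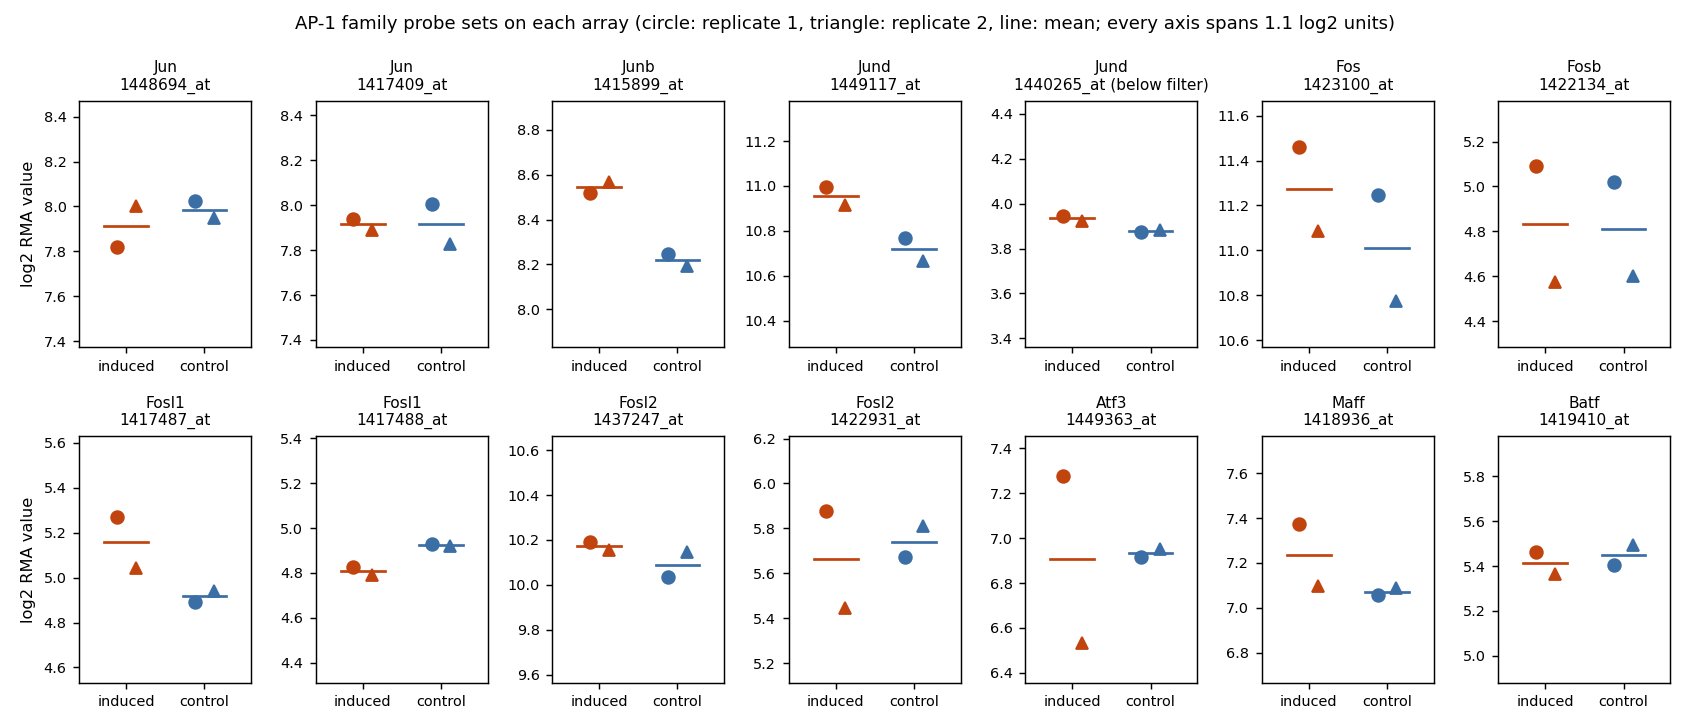
Log2 RMA values (vertical axis) of the 14 AP-1 probe sets on each array, induced left of control, with a circle for replicate 1, a triangle for replicate 2 and a line for the group mean. Junb and the brighter Jund probe set show separate groups with replicates close together. Fos and Fosb show replicates that lie far apart in both groups, and Atf3 in the induced group only.

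Among the Jun genes, Junb had the largest difference of the family. Its protein is an early-response Jun family member that restrains proliferation in keratinocytes. Junb had values of 8.52 and 8.57 in the induced arrays, against 8.25 and 8.19 in the controls. The replicates in either group differed by about 0.05, so the groups lay well apart. The difference was 0.33 ± 0.10 (SE, n = 2 and 2), a fold of 1.25, with a 95% interval of 0.09 to 0.56 and an adjusted p of 0.366 (unadjusted p = 0.0152) in limma. Among the 27022 kept probe sets 611 had a moderated statistic at least as high. The difference was 0.30 to 0.35 whichever array was left out, and 0.35 without induced replicate 1.

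Jund encodes the Jun protein that is present in resting cells and is the least inducible of the 3. Its brighter probe set (1449117_at) had values of 11.00 and 10.91 in the induced arrays, against 10.77 and 10.66 in controls. Both induced arrays were above both controls, with a gap between the groups a little larger than that between the control replicates. The difference was 0.24 ± 0.10 (fold 1.18, 95% interval -0.01 to 0.49, adjusted p = 0.516 in limma), and it was 0.20 without induced replicate 1. The other Jund probe set (1440265_at) did not pass the filter, with 3.95 and 3.92 in the induced arrays, against 3.87 and 3.88 in controls.

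Jun, the founding member and a published miR-203 target, showed overlapping groups in both of its probe sets. Probe set 1448694_at had 7.819 and 8.002 in the induced arrays, against 8.024 and 7.947 in controls. The lowest value was that of induced replicate 1, and induced replicate 2 lay between the controls. The difference was -0.07 ± 0.11, with a 95% interval of -0.35 to 0.20 and an adjusted p of 0.901 in limma. Probe set 1417409_at had 7.94 and 7.89 in the induced arrays, against 8.01 and 7.83 in controls. Here both induced values lay between the controls, with a difference of -0.00 ± 0.11 and a 95% interval of -0.27 to 0.26. The intervals thus include a transcript lowered by up to 0.35 on the log2 scale and one raised by up to 0.26. Without induced replicate 1 the difference of 1448694_at was 0.02.

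**Figure D2:**
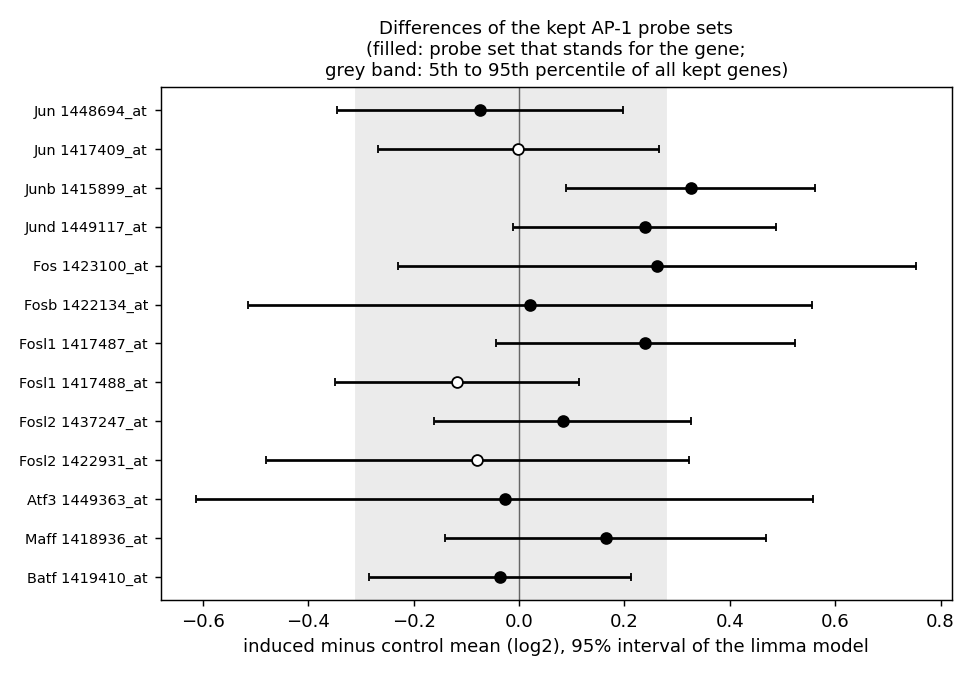
Difference of induced and control means on the log2 scale (horizontal axis) for the 13 kept AP-1 probe sets, with the 95% interval of the limma model, filled where the probe set stands for its gene. Of these intervals only that of Junb, 0.09 to 0.56, lies apart from 0, and the grey band spans the 5th to 95th percentile of all kept genes (-0.31 to 0.28).

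Fos genes encode the partners that bind DNA with a Jun protein. Fos itself, the classical marker of a fresh stimulus, had 11.46 and 11.09 in the induced arrays, against 11.25 and 10.78 in controls. The groups overlapped, since replicate 1 was the higher array in both groups, by 0.37 in the induced and 0.47 in the control pair. The difference was 0.26 ± 0.20 (95% interval -0.23 to 0.75, adjusted p = 0.736 in limma). It was 0.08 without induced replicate 1, 0.50 without control replicate 1 and 0.03 without control replicate 2, so that single arrays set its size.

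Fosb, an immediate early Fos protein, repeated this order at a dim level. Its values were 5.09 and 4.57 in the induced arrays, against 5.02 and 4.60 in controls. The replicates were 0.52 apart in the induced and 0.42 apart in the control pair, while the group means differed by 0.02 ± 0.22 (adjusted p = 0.992 in limma). Its difference was -0.24 without induced replicate 1. The median SD between replicates over all kept genes was 0.10. The SDs of Fos (0.26 induced and 0.33 control) and Fosb (0.37 induced and 0.30 control) were above it.

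The sum of linear levels over the 5 immune cell markers, Ptprc, Cd207, Cd74, Cd3e and Tyrobp, also had its higher array as replicate 1 in each group, with 2191 and 1583 in the induced arrays, against 2075 and 1739 in controls. The Langerhans cell marker Cd207 had 8.22 and 7.61 in the induced arrays, against 8.47 and 7.86 in controls. Their part in the Fos and Fosb values was not tested. In a bulk sample fewer cells of a type and less RNA per cell cannot be told apart.

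Fosl1 encodes Fra-1, a Fos family protein without the strong activation domain of Fos that is induced in migrating keratinocytes. Its 2 probe sets gave opposite directions, each with groups that did not overlap. Probe set 1417487_at had 5.27 and 5.04 in the induced arrays, against 4.89 and 4.94 in controls, a difference of 0.24 ± 0.12 (adjusted p = 0.565 in limma). Probe set 1417488_at had 4.83 and 4.79 in the induced arrays, against 4.93 and 4.92 in controls, a difference of -0.12 ± 0.09 (adjusted p = 0.756 in limma). Both were dim, and the direction of Fosl1 is not settled. Their average differed by 0.06. Without induced replicate 1 the first difference was 0.13.

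Fosl2 encodes Fra-2, the related protein of differentiating keratinocytes. Its brighter probe set (1437247_at) had 10.19 and 10.15 in the induced arrays, against 10.04 and 10.14 in controls. The gap between the nearest arrays of the groups was smaller than that between the control replicates, and the difference was 0.08 ± 0.10 (adjusted p = 0.865 in limma). Its dimmer probe set (1422931_at) had 5.88 and 5.45 in the induced arrays, against 5.67 and 5.81 in controls, so that the induced arrays lay on either side of the controls. That difference was -0.08 ± 0.16, and the average of both probe sets differed by 0.0015.

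The other 3 members are bZIP proteins outside the Jun and Fos subfamilies. Atf3, a stress-induced repressor or activator that can pair with Jun proteins, had 7.28 and 6.53 in the induced arrays, against 6.91 and 6.95 in controls. The induced arrays were the highest and the lowest of the 4, and their SD of 0.52 was the largest in the family, against 0.03 in controls. The difference of -0.03 ± 0.24 (95% interval -0.61 to 0.56) therefore says little of either array. It was -0.40 without induced replicate 1 and 0.34 without induced replicate 2.

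Maff, a small Maf protein that lacks an activation domain of its own, had 7.37 and 7.10 in the induced arrays, against 7.06 and 7.09 in controls. Induced replicate 1 was high, and induced replicate 2 exceeded the higher control by 0.01. The difference was 0.16 ± 0.12 (adjusted p = 0.734 in limma), and 0.03 without induced replicate 1. Batf, which pairs with Jun proteins in lymphocytes and dendritic cells, had 5.46 and 5.37 in the induced arrays, against 5.41 and 5.49 in controls. The groups overlapped, with a difference of -0.04 ± 0.10 and a 95% interval of -0.28 to 0.21.

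**Figure D3:**
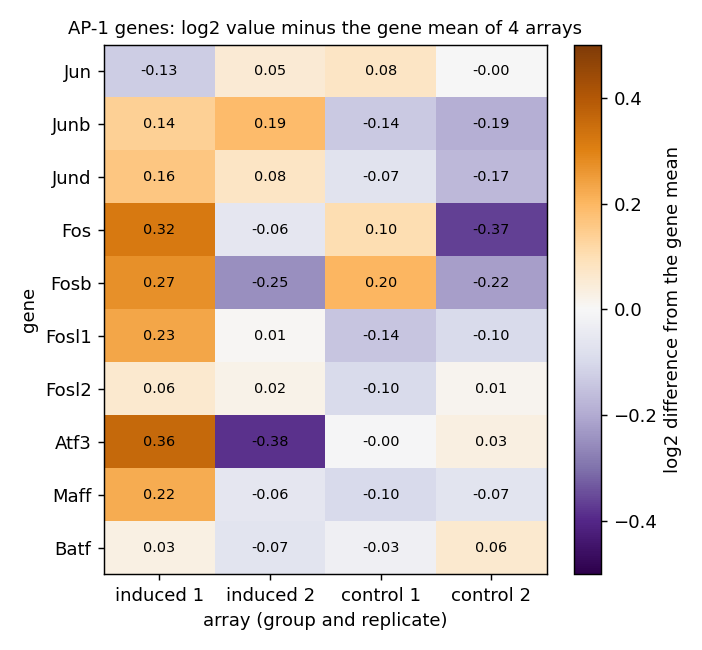
Log2 value of each AP-1 gene minus its mean over the 4 arrays, with genes in rows and the induced arrays left of the control arrays. Junb and Jund divide by group, Fos and Fosb are higher in replicate 1 of both groups, and Atf3 has its extremes, 0.36 and -0.38, in the induced arrays.

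Relative to each gene's own mean, the median of the 10 genes was 0.19 and -0.02 in the induced arrays, against -0.05 and -0.08 in controls. The array that stood apart in Xist and Eif2s3y, induced replicate 1, was the highest for 7 of these genes, Jund, Fos, Fosb, Fosl1, Fosl2, Atf3 and Maff. The share of all genes highest on this array was not computed, so the 7 cannot be called particular to the family. For Fosl1 this holds for its brighter probe set. The dimmer (1417488_at) was highest in control replicate 1, at 4.93 against 4.83 and 4.79 in the induced arrays. The part of the Xist and Eif2s3y difference between animals in these values was not tested. Junb was highest in induced replicate 2, Jun in control replicate 1 and Batf in control replicate 2.

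**Figure D4:**
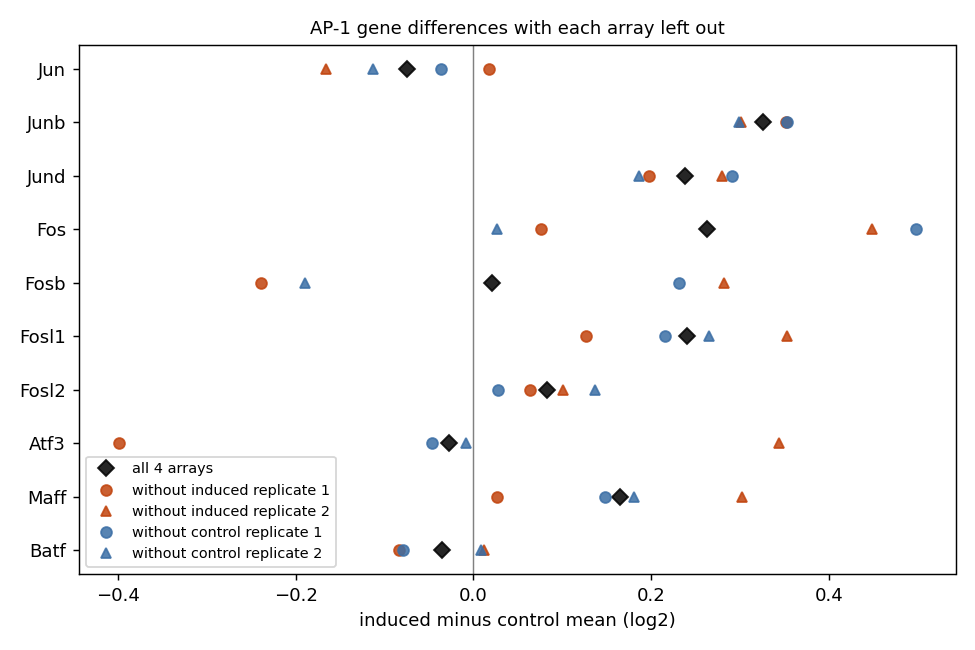
Difference of induced and control means on the log2 scale (horizontal axis) for each AP-1 gene with all 4 arrays and with each array left out. Junb stays between 0.30 and 0.35 and Jund between 0.19 and 0.29, while Atf3 ranges from -0.40 to 0.34.

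Other immediate early genes, which share with Fos and Jun their answer to growth factors and to dissociation, were read from a list of 40 genes, of which 39 were kept. The mean was higher in the induced arrays for 32 and lower for 7, where 49.6% of all genes had a higher mean. The groups lay apart upward for 23 (59%, against 20.1% of all genes) and downward for 2 (5.13%, against 19.3%). No gene of the list passed the adjusted threshold in limma, and 9 were higher and 0 lower at an unadjusted p under 0.05 (23.1% and 0%, against 4.4% and 5.23% of all genes). Without induced replicate 1 the groups lay apart upward for 30 (76.9%, against 35.9% of all genes) and downward for 4 (10.3%, against 33.3%). The median difference was 0.14 and ranged from 0.11 to 0.17 when an array was left out.

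The largest statistics in this list belonged to Dusp2, Rhob, Klf2, Klf6, Trib1 and Dusp6. Dusp2, a nuclear phosphatase that switches off MAP kinases, had 7.24 and 7.39 in the induced arrays, against 6.41 and 6.63 in controls. That is a difference of 0.79 ± 0.12 (fold 1.73, adjusted p = 0.181 in limma), with groups far apart. The small GTPase gene Rhob had 9.04 and 9.10 in the induced arrays, against 8.53 and 8.25 in controls, a difference of 0.68 ± 0.13. Dusp6, the cytoplasmic ERK phosphatase and a readout of ERK signalling, differed by 0.43 ± 0.13. The zinc finger genes Klf2 and Klf6 differed by 0.74 ± 0.19 and 0.33 ± 0.09, and the pseudokinase gene Trib1 by 0.35 ± 0.10.

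The next 5 genes are often used as dissociation markers. The genes above were picked for the largest statistics in the list, so smaller statistics here were fixed by that choice. Egr1, the zinc finger factor induced alongside Fos, had 11.00 and 11.05 in the induced arrays, against 10.91 and 10.85 in controls. Its difference was 0.14 ± 0.10 (adjusted p = 0.697 in limma), with groups that did not overlap. Ier2 differed by 0.16 ± 0.12, Dusp1 by 0.19 ± 0.13, Btg2 by 0.27 ± 0.11 and Zfp36, whose protein destabilises AU-rich transcripts, by 0.32 ± 0.11. In all 5 of these genes both induced arrays were above both controls, as they were for 20.1% of all genes. The 5 were chosen by name. Others of the same list, among them Ier3, Nr4a1, Myc, Gadd45a, Ccn1 and Nfkbiz, had groups that overlapped. Unlike Fos, Egr1 was not higher in replicate 1 of the induced pair.

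Heat shock genes are another group known to respond to tissue dissociation. Of 12 listed 10 were kept, 1 lay apart upward and 1 downward (10% each, against 20.1% and 19.3% of all genes), and the median difference was -0.01. Among them 3 lay apart upward (30%, against 35.9% of all genes) and 1 downward (10%, against 33.3%) without induced replicate 1. Single arrays of either group moved that median. It was -0.15 without control replicate 2, 0.06 without control replicate 1 and -0.11 without induced replicate 2. Hspa1a, the inducible Hsp70, had 10.20 and 10.07 in the induced arrays, against 10.40 and 10.06 in controls, and Dnajb1, its partner, differed by 0.04 ± 0.12. The gene that lay apart downward was Hspe1, a mitochondrial chaperonin that is no classical dissociation marker. It had 10.63 and 10.69 in the induced arrays, against 11.47 and 11.33 in controls (difference -0.74 ± 0.10, adjusted p = 0.173 in limma). The abundant chaperone genes Hspa8, Hsp90aa1 and Hspb1 differed by -0.25 ± 0.16, -0.16 ± 0.15 and 0.08 ± 0.10, with 1 of the 4 probe sets of Hsp90aa1 of the opposite sign.

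**Figure D5:**
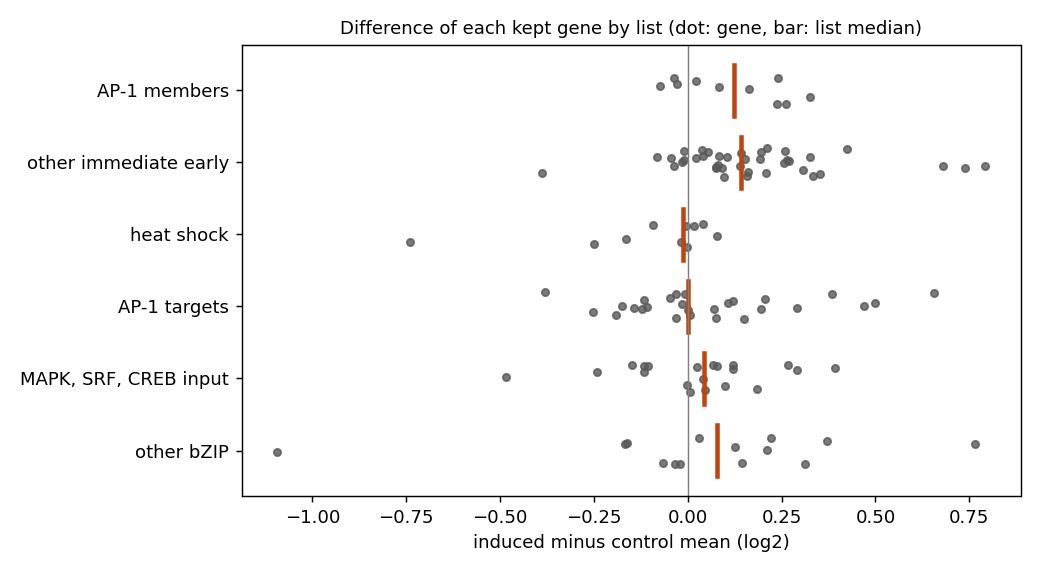
Difference of induced and control means on the log2 scale (horizontal axis) for each kept gene in 6 lists, 1 dot a gene, with a bar at the list median. The medians of the AP-1 members (0.12) and of the other immediate early genes (0.14) lie above 0, and those of the heat shock genes (-0.01) and AP-1 targets (0.00) lie close to it.

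Keratinocyte genes known as AP-1 targets were read from a list of 34, of which 27 were kept. Their median difference was 0.00, with 14 higher and 13 lower means, 8 apart upward (29.6%, against 20.1% of all genes) and 4 apart downward (14.8%, against 19.3%). With induced replicate 1 left out, 13 lay apart upward (48.1%, against 35.9%) and 7 downward (25.9%, against 33.3%). The median difference was then 0.04. No target was called in limma after adjustment. With all arrays 3 were higher and 0 lower at an unadjusted p under 0.05 (11.1% and 0%, against 4.4% and 5.23% of all genes). The 3 were the keratin Krt6a and the cornified envelope precursors Sprr1a and Sprr1b. Another keratin of the list, Krt16, had overlapping groups and a lower induced mean (-0.18 ± 0.14). Krt6a had 10.27 and 10.40 in the induced arrays, against 9.60 and 9.76 in controls (difference 0.66 ± 0.11, adjusted p = 0.201 in limma). Sprr1a had 12.39 and 12.49 in the induced arrays, against 11.88 and 12.00 in controls (0.50 ± 0.10). Sprr1b differed by 0.38 ± 0.10 and Sprr2d by 0.29 ± 0.12.

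The largest downward statistics among the targets were those of Vegfa, the vascular growth factor, at -0.25 ± 0.11 and the haem-degrading enzyme gene Hmox1 at -0.38 ± 0.18. For Vegfa 1 of its 2 kept probe sets had the opposite sign. The differentiation targets Ivl, Lor and Tgm1 differed by -0.03 ± 0.09, 0.00 ± 0.09 and 0.07 ± 0.10, the first pair at levels near the top of the measured range.

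Genes that act upstream of Fos and Jun (MAP kinases and the factors SRF, ELK, MEF2 and CREB) were listed as 28, of which 20 were kept. Their median difference was 0.04, with 7 apart upward (35%, against 20.1% of all genes) and 4 downward (20%, against 19.3%). Leaving out induced replicate 1, 10 lay apart upward (50%, against 35.9%) and 6 downward (30%, against 33.3%). The median difference was then 0.06. With all arrays limma called 0 after adjustment. At an unadjusted p under 0.05 there were 3 higher and 1 lower (15% and 5%, against 4.4% and 5.23% of all genes). Mapk8, which encodes the Jun kinase JNK1, had 7.10 and 7.02 in the induced arrays, against 7.21 and 7.39 in controls (-0.24 ± 0.11). Of its 4 kept probe sets 1 had the opposite sign. Map3k5, a stress kinase gene upstream of JNK, differed by 0.39 ± 0.10, and Nras by 0.27 ± 0.10. Rps6ka5, whose protein phosphorylates CREB and histones at early genes, differed by -0.48 ± 0.10 at a dim level. Mef2d, with 1 of 3 probe sets of the opposite sign, differed by 0.29 ± 0.11, and Srf, which encodes serum response factor, by 0.18 ± 0.11.

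Other bZIP genes whose proteins can pair with AP-1 members or with small Maf proteins were listed as 16, of which 14 were kept. Their median difference was 0.08, with 5 apart upward (35.7%, against 20.1% of all genes) and 2 downward (14.3%, against 19.3%). When induced replicate 1 was left out, 6 lay apart upward (42.9%, against 35.9%) and 2 downward (14.3%, against 33.3%). The median difference was then 0.05. With all arrays limma called 0 after adjustment. At an unadjusted p under 0.05 there were 2 higher and 1 lower (14.3% and 7.14%, against 4.4% and 5.23% of all genes). Atf2, a partner of Jun on cAMP response elements, had 6.61 and 6.91 in the induced arrays, against 7.88 and 7.83 in controls (-1.09 ± 0.13, adjusted p = 0.158 in limma), with 1 of its 4 kept probe sets of the opposite sign. Maf, the large Maf factor of differentiating epidermis, had 9.65 and 9.92 in the induced arrays, against 8.98 and 9.06 in controls (0.77 ± 0.12), and 1 of its 5 probe sets had the opposite sign. The small Maf gene Mafg differed by 0.31 ± 0.10 and Nfe2l1, a partner of small Mafs, by 0.21 ± 0.10. Atf7 differed by 0.22 ± 0.11. Bach2 differed by 0.37 ± 0.19, with groups that overlapped and 1 of its 3 kept probe sets of the opposite sign.

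Markers of the hair follicle, like Junb and Jund, were higher in both induced arrays. All 4 of the list, Krt71, Krt27, Padi3 and Foxn1, lay apart upward (20.1% of all genes did), with summed linear levels of 10692 and 12778 in the induced arrays, against 5611 and 7271 in controls. The 4 basal keratinocyte markers, Krt5, Krt14, Itga6 and Col17a1, lay apart downward (19.3% of all genes did), with sums of 30556 and 29674 in the induced arrays, against 33555 and 33801 in controls. Of these, Krt5, Krt14 and Itga6 differed by -0.17, -0.13 and -0.11, and Col17a1 by -0.71. This direction was not particular to the basal list. The spinous markers Krt1 and Krt10 also lay apart downward (-0.11 and -0.07). So did 2 of the 3 granular markers, Flg and Ivl (-0.10 and -0.03), while Lor overlapped. Leaving out an array cannot undo such a separation, so the follicle and basal counts of 4 stayed the same without induced replicate 1. Of all genes 35.9% then lay above and 33.3% below. The part of these markers in the Junb and Jund values was not tested. Of the 5 fibroblast markers Col1a2 and Col3a1 passed the filter and Col1a1, Pdgfra and Lum did not, with a summed level of 54.6 and 112 in the induced arrays, against 70.0 and 90.4 in controls. Col3a1 had 4.54 and 6.13 in the induced arrays, against 4.95 and 5.56 in controls. Of the 3 endothelial markers Kdr passed, with 5.37 and 5.06 in the induced arrays, against 5.33 and 5.63 in controls, and Pecam1 and Cdh5 did not. The summed melanocyte level was 3058 and 4846 in the induced arrays, against 3482 and 3651 in controls, and that of the red cell markers Slc4a1 and Alas2 was low, at 86.3 and 78.9 in the induced arrays, against 55.7 and 57.1 in controls.

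By root mean square distance between gene-centred values over the 4 arrays, the 5 genes most like Junb were Prkcz, Scamp2, Mcfd2, 4931406H21Rik and Epb41l4b, at distances of 0.01 to 0.02 log2 units. In all, 1049 genes lay within 0.1 of Junb and 4495 within 0.1 of Jun, whose nearest were Exosc1, Dctpp1, Zfp1, 1700037C18Rik and Nfatc2ip. Within 0.1 of Fos lay 45 genes, the nearest being Rbak, 4933433H22Rik, A430035B10Rik, Gm3912 and Npy1r. With 4 arrays such likeness is common, and it describes these arrays only. No other AP-1 member was among the 5 nearest to any of the 3.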

How the data were processed

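Messenger RNA of sorted skin cells was hybridised to 1 Affymetrix array a sample. The deposited values are on the log2 scale. The submitters' processing notes name RMA and give no version. RMA equalises probe signals between arrays before it summarises them into probe sets, so differences in total RNA content between cells are not measured. Columns of other samples numbered 0. The 64 control probe sets were left out. Genes were named from the platform annotation through single-gene probe sets only (932 had several genes and 9160 were not listed), with symbols updated from the RefSeq table of GRCm38. Where a gene had several kept probe sets, the brightest stood for it.

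Groups came from the sample titles. Induced and control arrays were compared with limma 3.58.1 in R 4.3.3 (lmFit, eBayes, two-sided, Benjamini-Hochberg over all 27022 kept probe sets), with 2 residual degrees of freedom, 3.82 prior degrees of freedom and a prior SD of 0.115. The test was checked on simulated data. The arrays are labelled biological replicates, and their number limits the precision. Depth has no meaning for arrays. Alternatives were other filters, normalizations, variance priors and probe set summaries, a replicate block, and leaving out each array.

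All members were described with every probe set. From each list up to 6 genes with the largest absolute statistic, and Egr1, Ier2, Btg2, Zfp36, Dusp1 and Atf2 by name, are given. Ivl, Lor, Tgm1 and Krt16 were named outside this rule, with their values known. The members and lists were chosen with earlier results of these data known. A list is described by counts and medians without a test.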

Additional observations from a re-analysis of the deposited data

How the results depend on the processing

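No AP-1 gene or probe set passed the threshold under any of the alternatives, and Junb, Jund, Fos, the brighter Fosl2 probe set, both Fosl1 probe sets and Maff kept their direction in each. Most of these directions were fixed in advance. Filters, variance priors and the block cannot change a difference, and leaving out an array cannot turn groups that lay apart. Of these probe sets only that of Fos had overlapping groups, so only its direction could turn when an array was left out. With eBayes run with trend and robust, 126 probe sets were called over all, none of them an AP-1 probe set, and Junb had an adjusted p of 0.235 (0.235 to 0.739 over its alternatives). When the values were quantile normalized again, 3 members lay above both controls (Junb, Jund and Fosl1) and 1 below (Jun), where 19.3% and 21.5% of all genes did. When a gene's kept probe sets were averaged 3 lay above (Junb, Jund and Maff) and 0 below, where 20.8% and 19.4% of all genes did. The AP-1 median was then 0.041 in place of 0.123, Fosl1 differed by 0.061 and Fosl2 by 0.0015, and the median of the other bZIP genes was 0.045. The median of the upstream genes was 0.058 when the filter was set at the 60th percentile.

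Leaving out each array in turn, 5 to 8 members lay above and 1 to 3 below, where 33.2% to 37.3% of all genes lay above and 31.9% to 37.9% below, and 0 to 6 probe sets were called over all. The 5 members that lay above with all arrays must stay above when an array is left out, so that part was fixed in advance. In limma the lone array of a group was then assumed to vary like the other group. The median differences ranged from 0.045 to 0.291 for AP-1, 0.106 to 0.169 for immediate early genes, -0.149 to 0.057 for heat shock genes, 0.00043 to 0.0400 for AP-1 targets, 0.045 to 0.070 for upstream genes and 0.048 to 0.114 for other bZIP genes. Directions turned for Jun (1448694_at, -0.166 to 0.017, and 1417409_at, -0.091 to 0.088), Fosb (-0.24 to 0.28), Atf3 (-0.40 to 0.34), Batf (-0.084 to 0.012) and the dimmer Fosl2 probe set (-0.30 to 0.14). The cause was not tested.

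The replicate numbers are not said to mark litters, and same-numbered arrays did not deviate together (correlation of deviations over genes -0.09). With the replicate number as a block, 0 probe sets were called over all and 0 among the AP-1 genes. In this balanced design a block cannot change a difference or which groups lie apart. The counts of 5 members above and 0 below (20.1% and 19.3% of all genes) were thus fixed in advance. So were the medians of 0.12 for AP-1 and 0.14 for immediate early genes. With 1 residual degree of freedom Junb had an adjusted p of 0.597 and Fos 0.661 in limma.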
